A study of Mus musculus with 29 samples.

Results

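The genes described are the 3 TGF-beta ligands Tgfb1, Tgfb2 and Tgfb3, the 2 receptor genes Tgfbr1 and Tgfbr2, and the 4 Smad genes Smad2, Smad3, Smad4 and Smad7. They were chosen by symbol and are 9 of the 48709 gene identifiers in each count table. RNA-seq was done on 29 libraries from 3 experiments in mice, and each compared anti-miR-99b, a locked nucleic acid (LNA) oligonucleotide that inhibits miR-99b-5p, with sc-control, a negative control LNA. The prefrontal cortex (PFC) of male C57BL/6J mice aged 3 months was injected with either LNA in lipid nanoparticles and collected 5 days later, with 1 library per mouse and 3 mice per group. Primary microglia of CD1 pups at postnatal day 1, shaken off mixed glia and grown in medium with L929 conditioned medium, were treated for 48 h, with 4 libraries per group. In the co-culture, CD1 cortical neurons of embryonic day 17.5 were grown for 48 h with microglia that had been treated for 48 h beforehand, so that the LNA was given to the microglia before they met the neurons, with 7 anti-miR-99b and 8 sc-control libraries. The labels do not say that the libraries of the 2 cell culture experiments came from separate cultures, so their p-values measure the spread between these libraries, which may be technical.

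TGF-beta ligands are secreted in a latent form and, once released, bind a complex of the type II receptor Tgfbr2 and the type I receptor Tgfbr1, a kinase that phosphorylates Smad2 and Smad3. These join Smad4 and enter the nucleus to regulate transcription, and Smad7, which the pathway itself induces, blocks the receptor. In the brain the pathway is best known for microglia, which need TGF-beta signalling to keep their homeostatic state, while neurons and astrocytes supply other ligands. The study also measured Tgfb1 by qPCR as one of several inflammatory cytokines, in microglia sorted from the PFC, in primary microglia and in a microglial cell line. The comparison here asks whether the ligands, the receptors or the Smads differed in RNA level with the inhibitor, and where each gene was expressed.

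The sequence that the inhibitor addresses is shown because the seed of a miRNA governs which transcripts it pairs with. Mature mmu-miR-99b-5p has 22 nucleotides and lies at chr17:17830194-17830215 on the plus strand of GRCm38.p6 (RefSeq). Capitals mark the seed, bases 2 to 8.
mmu-miR-99b-5p: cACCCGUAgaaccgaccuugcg
The complement of the seed, TACGGGT, and the form with a terminal A, ACGGGTA, were looked for on the sense strand of the longest annotated 3′ UTR of each gene. Neither of these 7-base matches was found in the 9 genes, whose 3′ UTRs run from 135 bp (Tgfb1) to 6233 bp (Smad2). Over the 21039 genes with an annotated 3′ UTR, 1.9% hold such a match, and the median 3′ UTR has 960 bp. The 6-base match ACGGGT, which pairs with bases 2 to 7 and is held by 5.47% of these genes, was found once, in Tgfb2. It starts at position 976 of its 2656 bp 3′ UTR, and capitals mark the matching bases.
Tgfb2 3′ UTR: ttaaaatagACGGGTctagaagcc
A missing match says only that these letters are not in these windows.

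The libraries held between 21324156 and 37901110 counts on genes, with a median of 28450652, and all 9 genes passed the filter on low counts in each experiment. Among the 9 genes the fewest reads in any library were 71, for Tgfb1 in a co-culture library. Genes from the lists described further below could have fewer. Within every group each pair of libraries differed by more than sampling noise (chi-square per degree of freedom of at least 1.44), so none was counted as a copy. The labelled cell types were checked against markers. The 10 microglia markers summed to between 13100 and 13800 CPM (read counts scaled to a common library size with TMM factors) in the microglia libraries, to between 444 and 679 CPM in the PFC and to between 113 and 163 CPM in the co-cultures. The 10 neuron markers summed to between 9350 and 10200 CPM in the PFC, to between 8070 and 8390 CPM in the co-cultures and to between 130 and 145 CPM in the microglia. The microglia libraries also held astrocyte markers (281 to 330 CPM) and oligodendrocyte lineage markers (282 to 331 CPM). The co-cultures held more of both, with 2510 to 2730 CPM and 426 to 494 CPM. In the PFC these sums were 4290 to 5020 CPM and 4060 to 5320 CPM.

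In control libraries the genes divided into a set with its highest level in microglia and others with a different order. Levels between genes are given as CPM per kb of exon, on 1 scale for the 15 sc-control libraries. In the 4 microglia libraries, Tgfbr1 was at 67.0 ± 4.34 CPM per kb (SD, n = 4), Tgfbr2 at 63.7 ± 2.23 and Tgfb1 at 60.9 ± 2.56. These 3 stood above the rest and their libraries overlapped in the order given. They were followed by Smad4 at 19.4 ± 0.932, Smad3 at 16.0 ± 0.239, Smad2 at 6.34 ± 0.182, Smad7 at 5.99 ± 0.318, Tgfb2 at 2.99 ± 0.451 and Tgfb3 at 1.37 ± 0.0798 CPM per kb (SD, n = 4 each). Among these 6 genes, neighbours in the order overlapped for Smad2 and Smad7 alone.

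In the PFC of the 3 sc-control mice Smad3 and Smad4 led. Smad3 was at 15.5 ± 0.847 CPM per kb and Smad4 at 9.71 ± 0.318, and neither overlapped with its neighbours in the order of levels. Smad7 at 5.50 ± 0.148, Tgfb3 at 5.34 ± 0.355 and Tgfbr1 at 4.96 ± 0.907 overlapped, as did Smad2 at 3.54 ± 0.173 and Tgfbr2 at 3.43 ± 0.495. The lowest levels in the PFC, which overlapped as well, were those of Tgfb2 at 1.53 ± 0.133 and Tgfb1 at 1.30 ± 0.225 CPM per kb (SD, n = 3 each). In the 8 sc-control co-cultures Smad4 led at 14.7 ± 0.627 CPM per kb, followed by Smad2 at 4.68 ± 0.222, Smad3 at 4.02 ± 0.197 and Tgfbr1 at 3.98 ± 0.239, of which the last 2 overlapped. Below them were Tgfb2 at 3.12 ± 0.111, Smad7 at 1.85 ± 0.167, Tgfb3 at 1.77 ± 0.0983, Tgfbr2 at 1.23 ± 0.0528 and Tgfb1 at 0.641 ± 0.0960 CPM per kb (SD, n = 8 each). Smad7 and Tgfb3 overlapped.

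**Figure D1:**
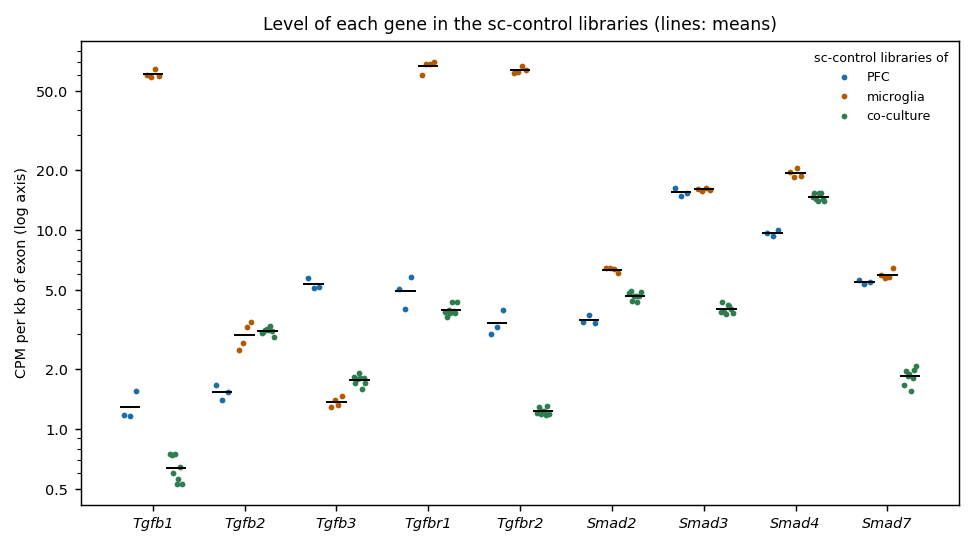
Level of the 9 genes in the sc-control libraries, as CPM per kb of exon on a log axis, with 1 point per library and a line at the mean. Tgfb1, Tgfbr1 and Tgfbr2 lie between 58.6 and 70.2 CPM per kb in the microglia libraries and at or below 5.81 CPM per kb in the PFC and the co-cultures. Smad2 spans less, with 3.43 to 3.74 CPM per kb in the PFC, 4.35 to 4.97 in the co-cultures and 6.08 to 6.48 in microglia, ranges that do not overlap.

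The leading ligand differed between the experiments. Tgfb1 made up 93.3 ± 0.716% of the summed CPM per kb of the 3 ligands in microglia (SD, n = 4), but 15.9 ± 2.64% in the PFC (SD, n = 3) and 11.5 ± 1.45% in the co-cultures (SD, n = 8). In the PFC Tgfb3 held the largest share, 65.3 ± 2.43%, and in the co-cultures Tgfb2 did, with 56.4 ± 1.97%. Part of the exons of Tgfb3 (chromosome 12 of GRCm38, 86056745 to 86079041) and 124 bp of those of Tgfb2 (chromosome 1, 186622792 to 186705989) overlap genes on the opposite strand, and the library kit used does not keep the strand, so the 2 levels could hold reads of those genes. The other 7 genes share no exonic base with another annotated gene.

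Between the sc-control groups, calls needed an adjusted p-value under 0.05 and a log2 difference beyond 1 (edgeR's quasi-likelihood test over 18274 genes). Strain, age, tissue and preparation differ with the experiment and cannot be told apart, and in such bulk samples fewer cells of a type and less RNA per cell cannot be told apart either. Against the PFC, microglia were higher in 3 of the 9 genes, where 26.4% of all genes tested were called higher. Tgfb1 differed 46.6-fold (log2 5.54, standard error 0.08), Tgfbr2 18.6-fold (log2 4.22, standard error 0.06) and Tgfbr1 13.5-fold (log2 3.75, standard error 0.08), with adjusted p-values of at most 2.58e-24. Tgfb3 was lower in microglia than in the PFC, 3.88-fold (log2 −1.96, standard error 0.08, adjusted p = 9.72e-19), where 37% of all genes were called lower. Smad4 and Tgfb2 differed in the same test with log2 values of 1.00 and 0.97, just inside the limit. Smad2 was also higher in microglia, with a log2 of 0.84 inside the limit (standard error 0.05, adjusted p = 1.44e-14). The difference of Smad3, which transmits the signal, did not pass the test (log2 0.05, standard error 0.04, adjusted p = 0.317), nor did that of Smad7 (log2 0.13, standard error 0.06, adjusted p = 0.0681).

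Against the co-cultures, microglia were higher in 5 genes (24.3% of all genes tested) and lower in 0 (35.2% of all genes). Tgfb1 differed 94.8-fold (log2 6.57, standard error 0.06) and Tgfbr2 51.6-fold (log2 5.69, standard error 0.05), both more than Tgfbr1 with 16.9-fold (log2 4.08, standard error 0.06). Smad3 differed 3.99-fold (log2 2.00, standard error 0.04) and the inhibitory Smad7 3.24-fold (log2 1.69, standard error 0.06), and all 5 adjusted p-values were at most 3.93e-20. Tgfb2 did not pass the test (log2 −0.05, standard error 0.07, adjusted p = 0.491).

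The co-cultures of embryonic neurons were higher than the adult PFC in Tgfb2 alone (2.02-fold, log2 1.02, standard error 0.08, adjusted p = 5.13e-12), where 14.9% of all genes were called higher. This call ended with other scaling factors or with DESeq2, which placed the log2 difference between 0.96 and 0.98, and without PFC sc-control replicate 3 (log2 0.96) or co-culture sc-control replicate 8 (log2 1.00). They were lower in 5 genes, where 20.5% of all genes were called lower. Smad3 was 3.87-fold lower (log2 −1.95, standard error 0.04), Tgfb3 3.01-fold (log2 −1.59, standard error 0.06), Smad7 2.97-fold (log2 −1.57, standard error 0.06), Tgfbr2 2.78-fold (log2 −1.47, standard error 0.06) and Tgfb1 2.03-fold (log2 −1.02, standard error 0.10), with adjusted p-values of at most 1.13e-09. The call of Tgfb1 was lost without PFC sc-control replicate 4 (log2 −0.87) and, by a margin within rounding, without co-culture sc-control replicate 6 or 12.

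**Figure D2:**
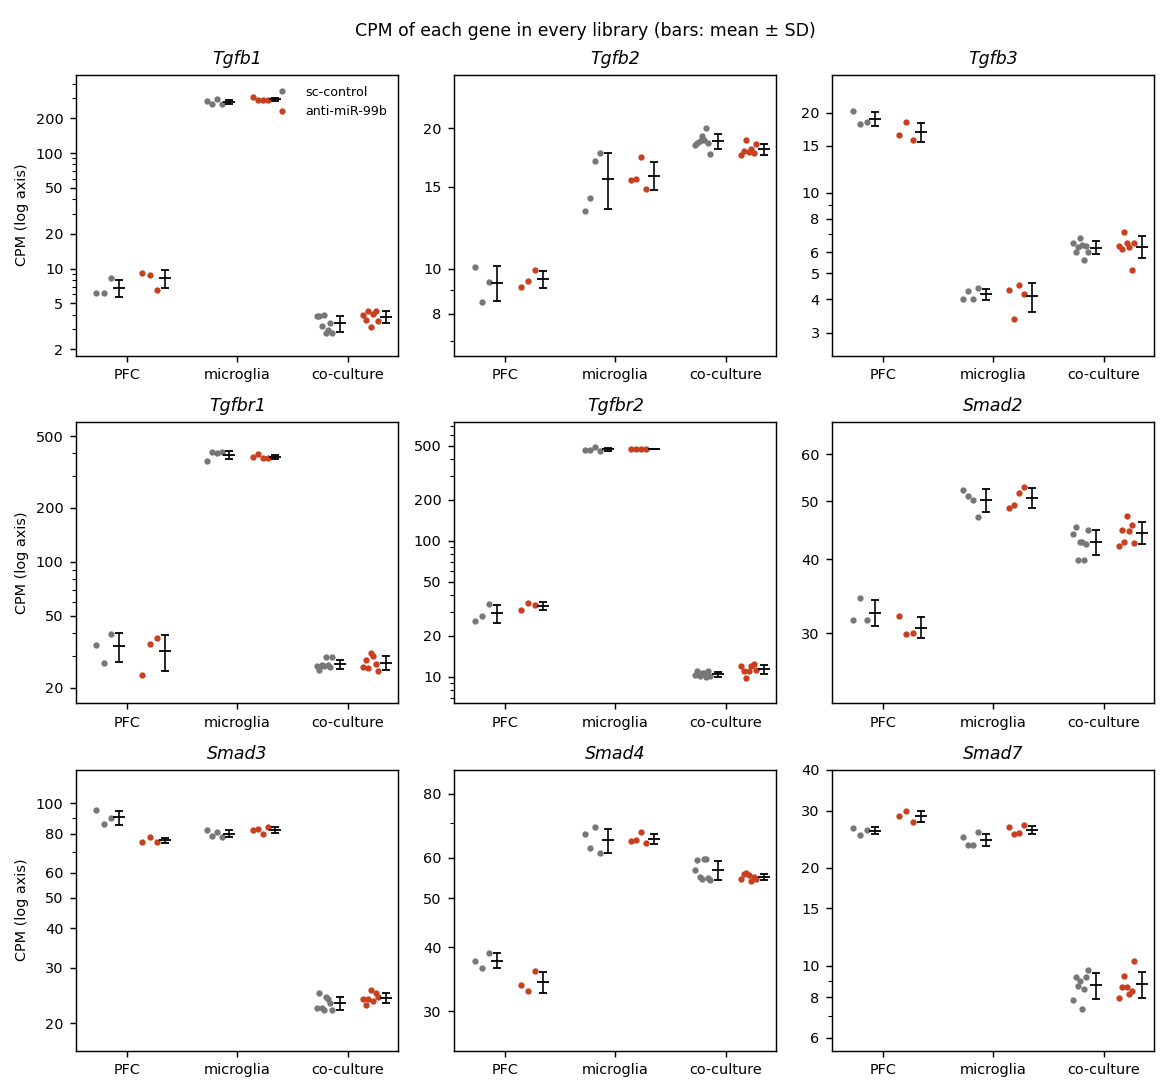
CPM of each gene in every library on a log axis, grouped by experiment, with sc-control in grey and anti-miR-99b in red and bars for the mean ± SD. Differences between experiments are large for Tgfb1, Tgfbr1 and Tgfbr2, while the red and grey points of 1 experiment overlap in range, apart from Smad3, Smad4 and Smad7 in the PFC. Of all genes tested in the PFC, 13.3% had no overlap.

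With the inhibitor, no gene among the 9 passed the threshold of any experiment in edgeR's quasi-likelihood test. A call needed an adjusted p under 0.1 and a log2 fold change (log2FC) beyond 0.2 in the PFC, a p under 0.1 and 0.1 in microglia, and a p under 0.05 and 0.1 in the co-cultures. In the PFC 0.0864% of 17364 genes were called up and 0% down, in microglia 0.435% of 14953 up and 0.0535% down, and in the co-cultures 0.846% of 16193 up and 0.556% down. Without adjustment, 1 of the 9 genes had a p-value under 0.05 in the PFC (Smad3), 2 in microglia (Tgfb1 and Smad7) and 2 in the co-cultures (Tgfb1 and Tgfbr2). Over all genes tested, 1326 of 17364 did in the PFC, 964 of 14953 in microglia and 2139 of 16193 in the co-cultures. DESeq2's Wald test called 0 of the 9 in each experiment. Their median log2FC was −0.08 in the PFC, 0.01 in microglia and 0.03 in the co-cultures, while that of all genes tested was 0.003 in each. Exact permutation tests on the CPM, two-sided, were run for all 27 combinations of gene and experiment, and the lowest p was 0.0354 (0.308 after Benjamini-Hochberg adjustment over the 27).

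The level of Tgfb1 (ENSMUSG00000002603, chromosome 7 of GRCm38, 25687002 to 25705077), the ligand of leukocytes and microglia, was above the sc-control mean in all 3 experiments without a call in any. In microglia it was at 303, 287, 286 and 289 CPM after anti-miR-99b and at 281, 267, 292 and 266 CPM after sc-control. The groups overlapped, since 1 sc-control library lay above 3 of the 4 treated ones. The log2FC was 0.08 (standard error 0.03, 95% interval 0.00 to 0.16, unadjusted p = 0.0247, adjusted p = 0.693, edgeR), and the exact permutation p was 0.114 (two-sided, smallest possible 0.0286). In the co-cultures the lowest, median and highest Tgfb1 values were 3.15, 3.98 and 4.30 CPM after anti-miR-99b and 2.79, 3.26 and 3.96 CPM after sc-control. Of the 7 treated libraries, 4 lay above every sc-control library. The log2FC was 0.20 (standard error 0.09, 95% interval 0.00 to 0.39, adjusted p = 0.342, edgeR; exact permutation p = 0.0696, two-sided). In the PFC the treated mice had 9.23, 8.86 and 6.58 CPM and the sc-control mice 6.20, 6.13 and 8.24 CPM, so that 2 of 3 treated mice were above all controls (log2FC 0.26, standard error 0.16, adjusted p = 0.699, edgeR). The log2FC was 0.41 without sc-control replicate 4 and 0.17 without anti-miR-99b replicate 1.

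In both the PFC and the co-cultures the microglia markers were at a higher level after anti-miR-99b as well. Their summed CPM in the PFC was 656, 679 and 608 in the treated mice and 448, 444 and 620 in the sc-control mice, and all 10 markers had a log2FC above 0, with a median of 0.37 and 0 called. In the co-cultures the sum lay between 141 and 163 CPM after anti-miR-99b and between 113 and 144 CPM after sc-control. Of the 10 markers 7 were called up there, where 0.846% of all genes tested were, with a median log2FC of 0.34. In microglia the sum lay between 13400 and 13800 CPM and between 13100 and 13600 CPM, with a median log2FC of 0.02. The library with the lowest marker sum among the treated PFC mice, replicate 3, was also the lowest of them in Tgfb1, and sc-control replicate 4, with the highest marker sum of its group, was the highest.

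Tgfb1, Tgfbr1 and Tgfbr2 were also set against these markers, as a description. Tgfb1 per 100 CPM of microglia markers, a ratio chosen after seeing the data whose denominator was itself higher on average in the treated PFC and co-cultures, was 2.53 ± 0.317 in the treated co-cultures (SD, n = 7) and 2.70 ± 0.244 in the sc-control co-cultures (SD, n = 8). The ratios overlapped between the groups. In the PFC the ratio was 1.26 ± 0.166 against 1.37 ± 0.0306 (SD, n = 3 each) and in microglia 2.14 ± 0.0867 against 2.08 ± 0.0864 (SD, n = 4 each). The part of the marker level in the Tgfb1 values was not tested.

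**Figure D3:**
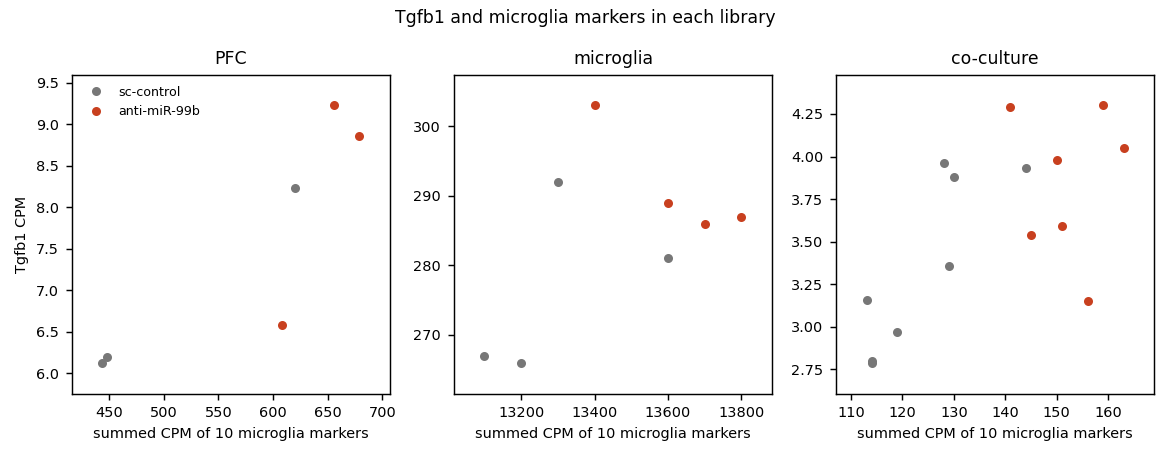
CPM of Tgfb1 (vertical axis) against the summed CPM of 10 microglia markers (horizontal axis) in each library, 1 panel per experiment, with sc-control in grey and anti-miR-99b in red. The axes do not start at 0. In the PFC and the co-cultures the treated libraries lie further right, with marker sums of 608 to 679 CPM and 141 to 163 CPM, apart from 1 sc-control library at 620 CPM and 1 at 144 CPM among them.

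Tgfb2 and Tgfb3, which neurons and glia express in the brain, overlapped with their controls in every experiment. Tgfb2 (ENSMUSG00000039239), the gene with the 6-base match shown above, was at 9.15, 9.4 and 9.93 CPM after anti-miR-99b and at 10.1, 8.49 and 9.35 CPM after sc-control in the PFC (log2FC 0.03, standard error 0.10, adjusted p = 0.955, edgeR). In microglia it was at 15.5, 15.6, 17.4 and 14.8 CPM against 13.3, 14.2, 17.0 and 17.7 CPM (log2FC 0.01, standard error 0.08, adjusted p = 0.991, edgeR). The groups overlapped in both, and the 95% interval of the difference was −0.26 to 0.32 in the PFC and −0.17 to 0.20 in microglia. In the co-cultures the lowest, median and highest Tgfb2 values were 17.5, 17.9 and 18.9 CPM after anti-miR-99b and 17.6, 18.7 and 20.0 CPM after sc-control. Of the treated libraries 1 lay below every control and 0 above, with a log2FC of −0.05 (standard error 0.03, 95% interval −0.13 to 0.02, adjusted p = 0.536, edgeR; exact permutation p = 0.0390, two-sided, 0.308 after adjustment).

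Tgfb3 (ENSMUSG00000021253), the leading ligand of the PFC, was at 16.5, 18.4 and 15.8 CPM in the treated mice and at 20.3, 18.1 and 18.4 CPM in the sc-control mice. Of the treated mice, 2 lay below all controls, and the log2FC was −0.16 (standard error 0.09, adjusted p = 0.675, edgeR; exact permutation p = 0.300). In microglia Tgfb3 was at 4.32, 3.36, 4.52 and 4.19 CPM against 4.01, 4.28, 4.02 and 4.39 CPM (log2FC −0.03, standard error 0.10, adjusted p = 0.987, edgeR). In the co-cultures its lowest, median and highest values were 5.15, 6.33 and 7.13 CPM against 5.63, 6.30 and 6.77 CPM (log2FC 0.02, standard error 0.06, adjusted p = 0.936, edgeR). In both cultures the range of the treated libraries enclosed all the controls.

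The receptors were at high and even levels in microglia. Tgfbr2 (ENSMUSG00000032440, chromosome 9, 116084293 to 116175360), the type II receptor that binds the ligand first, was at 475, 476, 471 and 472 CPM after anti-miR-99b and at 464, 463, 491 and 460 CPM after sc-control. The 4 treated libraries lay within the range of the controls, and the log2FC was 0.01 (standard error 0.03, 95% interval −0.05 to 0.08, adjusted p = 0.973, edgeR). In the co-cultures the lowest, median and highest Tgfbr2 values were 9.74, 11.2 and 12.4 CPM against 10.0, 10.4 and 11.1 CPM. Here 4 treated libraries lay above and 1 below every control, with a log2FC of 0.11 (standard error 0.05, 95% interval 0.00 to 0.22, adjusted p = 0.336, edgeR; exact permutation p = 0.0354, two-sided). In the PFC Tgfbr2 was at 30.8, 35 and 33.8 CPM against 25.8, 28.2 and 34.1 CPM. One treated mouse was above all controls (log2FC 0.18, standard error 0.11, adjusted p = 0.682, edgeR; exact permutation p = 0.300). The log2FC was 0.30 without sc-control replicate 4 and 0.09 without sc-control replicate 2.

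Tgfbr1 (ENSMUSG00000007613, chromosome 4, 47353222 to 47414931), the kinase of the complex, was at 380, 395, 376 and 375 CPM in treated microglia and at 363, 406, 401 and 405 CPM in control microglia. The treated libraries lay inside the control range, which sc-control replicate 2 alone extended downwards. The log2FC was −0.05 (standard error 0.03, 95% interval −0.13 to 0.03, adjusted p = 0.891, edgeR). In the co-cultures the lowest, median and highest Tgfbr1 values were 24.8, 26.9 and 31.2 CPM against 24.9, 26.6 and 29.5 CPM (log2FC 0.03, standard error 0.05, adjusted p = 0.856, edgeR). In the PFC Tgfbr1 had the largest SD relative to its mean of the 9 genes in both groups, with 23.6, 34.9 and 37.5 CPM in the treated mice and 34.5, 27.4 and 39.8 CPM in the controls. The groups overlapped, with 1 treated mouse below all controls (log2FC −0.08, standard error 0.17, adjusted p = 0.913, edgeR).

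Each Smad had its largest log2FC, in absolute size, in the PFC, where none was called in the main fit. Smad3 (ENSMUSG00000032402, chromosome 9, 63646767 to 63757994), a receptor-activated Smad, was at 75.3, 77.8 and 75.3 CPM in the mice treated with anti-miR-99b and at 95, 85.8 and 89.4 CPM in the sc-control mice. All 3 treated mice lay below all controls, a separation that 13.3% of the genes tested in the PFC showed in either direction. The log2FC was −0.24 (standard error 0.07, 95% interval −0.43 to −0.06, unadjusted p = 0.00425, adjusted p = 0.399, edgeR; exact permutation p = 0.1, the smallest that 3 against 3 allow). By sequencing lane the values were 75.3 and 77.8 against 95 and 85.8 CPM in lane 6 and 75.3 against 89.4 CPM in lane 7. A lane term gave a log2FC of −0.24 (adjusted p = 0.195, edgeR). Over 16 alternatives the log2FC stayed between −0.28 and −0.20 with adjusted p-values of 0.0621 to 0.970. It passed the threshold with 1 factor of unwanted variation (adjusted p = 0.0621, edgeR). It also passed in a fit of only 2 pairs of mice, with the shared replicate numbers paired crosswise (adjusted p = 0.0748, edgeR). Of the neuron markers in the PFC, 9 of 10 had a log2FC below 0, with a median of −0.07 and 0 called, and their sum lay between 9350 and 9520 CPM in the treated mice and between 9520 and 10200 CPM in the controls. Their part in the Smad3 difference was not tested.

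In the cultures Smad3 was close to its controls. In microglia it was at 81.9, 83.0, 79.6 and 84.0 CPM against 82.2, 78.8, 81.0 and 78.2 CPM (log2FC 0.04, standard error 0.03, 95% interval −0.04 to 0.11, adjusted p = 0.908, edgeR). The groups overlapped, as they did in the co-cultures, where the lowest, median and highest values were 22.8, 23.9 and 25.5 CPM against 22, 22.8 and 25 CPM (log2FC 0.06, standard error 0.04, 95% interval −0.02 to 0.14, adjusted p = 0.527, edgeR). The difference of the effects was tested in 1 fit of all 29 libraries, where calls needed an adjusted p-value under 0.05. The effect in microglia exceeded that in the PFC by a log2 of 0.30 (standard error 0.06, adjusted p = 0.00944, edgeR), where 0.469% of 18963 genes were called, and the effect in the co-cultures exceeded it by 0.30 as well (standard error 0.06, adjusted p = 0.00343, edgeR), where 0.791% were called. Both tests share the 6 PFC libraries. The joint fit also uses 1 estimate of spread per gene for all 29 libraries. Its standard errors of 0.06 lie below the 0.07 of the PFC fit alone, so the spread between mice may be understated. Without PFC sc-control replicate 2, which had the highest Smad3 value, the first difference was 0.26 and no longer passed (adjusted p = 0.0784), while the second did (0.26, adjusted p = 0.0423). Smad3 was the one gene of the 9 called in these tests, and 0 were called between microglia and co-cultures (0.0844% of all genes).

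**Figure D4:**
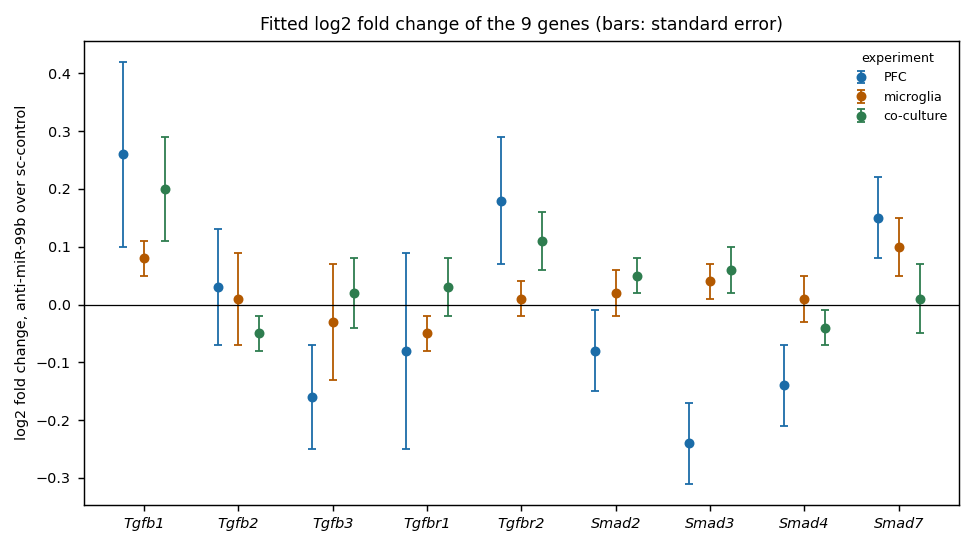
Fitted log2FC of anti-miR-99b over sc-control for the 9 genes in the 3 experiments, with bars for the standard error. Smad3 in the PFC lies at −0.24, apart from its values of 0.04 in microglia and 0.06 in the co-cultures, and the microglia and co-culture values of all genes lie between −0.05 and 0.20.

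Smad4 (ENSMUSG00000024515, chromosome 18), the partner that receptor-activated Smads share, was also lower in each treated PFC mouse, at 33.8, 32.8 and 36 CPM against 37.6, 36.5 and 39.0 CPM. The groups did not overlap, as for 13.3% of the genes tested in the PFC, but the highest treated and lowest control mouse were close. The log2FC was −0.14 (standard error 0.07, adjusted p = 0.660, edgeR), with an exact permutation p of 0.1. In microglia Smad4 was at 64.7, 65.0, 67.4 and 64.0 CPM against 66.9, 62.6, 68.8 and 61.3 CPM (log2FC 0.01, standard error 0.04, adjusted p = 0.986, edgeR), and the treated values lay inside the control range. In the co-cultures its lowest, median and highest values were 53.9, 54.9 and 56.0 CPM against 54.3, 55.9 and 59.6 CPM (log2FC −0.04, standard error 0.03, adjusted p = 0.532, edgeR).

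Smad2 (ENSMUSG00000024563, chromosome 18), the second receptor-activated Smad, was at 32.1, 29.9 and 30.1 CPM against 31.6, 34.4 and 31.6 CPM in the PFC, with 2 of 3 treated mice below all controls (log2FC −0.08, standard error 0.07, adjusted p = 0.768, edgeR). In microglia it was at 48.8, 49.4, 51.7 and 52.8 CPM against 52.2, 51.1, 50.3 and 47.1 CPM (log2FC 0.02, standard error 0.04, adjusted p = 0.971, edgeR). The co-cultures had lowest, median and highest Smad2 values of 42, 44.6 and 47.3 CPM against 39.8, 42.8 and 45.3 CPM, with 2 treated libraries above every control (log2FC 0.05, standard error 0.03, adjusted p = 0.570, edgeR). The differences between the PFC effect on Smad2 and those in microglia and co-cultures did not pass the test (edgeR adjusted p = 0.528 and 0.340).

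Smad7 (ENSMUSG00000025880, chromosome 18), the inhibitory Smad, was higher in each treated PFC mouse, at 28.8, 29.9 and 27.7 CPM against 26.6, 25.3 and 26.2 CPM. The groups did not overlap, as for Smad3 and Smad4 but in the other direction, and the log2FC was 0.15 (standard error 0.07, adjusted p = 0.660, edgeR; exact permutation p = 0.1). In microglia Smad7 was at 26.7, 25.4, 25.6 and 27 CPM against 24.8, 23.5, 23.5 and 25.7 CPM, with 2 treated libraries above all controls (log2FC 0.10, standard error 0.05, unadjusted p = 0.0412, adjusted p = 0.765, edgeR; exact permutation p = 0.0857). In the co-cultures its lowest, median and highest values were 7.95, 8.59 and 10.3 CPM against 7.34, 8.84 and 9.73 CPM (log2FC 0.01, standard error 0.06, adjusted p = 0.962, edgeR). In the PFC 13.3% of all genes tested had groups without overlap, in either direction. None of the 9 genes had groups without overlap in microglia, where 3.44% of all genes did, or in the co-cultures, where 0.58% did.

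Other genes of the pathway were followed in lists. Of 11 tested genes that hold TGF-beta latent or release it, 1 was called up in microglia and 0 in the PFC and the co-cultures. The medians were 0.03, 0.14 and −0.02 in this order, and 0.435% of all genes tested in microglia were called up. The gene called was Thbs1, thrombospondin 1, which can activate latent TGF-beta. It was at 17.9 ± 1.28 CPM after anti-miR-99b and at 14.5 ± 1.56 CPM after sc-control (SD, n = 4 each, log2FC 0.30, standard error 0.07, adjusted p = 0.0571, edgeR). The call ended without sc-control replicate 4 or 6 or anti-miR-99b replicate 1, 4 or 5 (log2FC 0.26 to 0.35, adjusted p = 0.124 to 0.358, edgeR). Of the 15 co-receptors and receptor regulators 0 were called in any experiment, with medians of −0.07 in the PFC, 0.02 in microglia and 0.01 in the co-cultures. The other Smads and Smad partners had 0 calls among 13, 13 and 12 genes tested, with medians of −0.01, 0.00 and −0.04.

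Among 16 genes that TGF-beta is known to induce, 11 had a log2FC above 0 in the PFC, 15 in microglia and, of 15 tested, 13 in the co-cultures, where 50.6%, 51.6% and 51.6% of all genes did. The medians were 0.13, 0.08 and 0.05. In microglia the fibroblast and meningeal markers also had a log2FC above 0 in 4 of 5 genes tested, with a median of 0.16 and 0 called, and their sum lay between 53.2 and 80.0 CPM after anti-miR-99b and between 40.2 and 70.0 CPM after sc-control. Their part in the values of the induced genes was not tested. The single gene called was Cdkn1a in the co-cultures, where 0.846% of all genes tested were called up. Cdkn1a encodes the cell cycle inhibitor p21, which many other signals induce as well. It was at 84.9 ± 3.80 CPM (SD, n = 7) against 75.7 ± 4.39 CPM (SD, n = 8), a log2FC of 0.17 (standard error 0.03, adjusted p = 0.0110, edgeR). With the replicate block, fitted only to the 4 pairs of libraries that share a number, the adjusted p was 0.102 (edgeR). Genes for BMP and activin ligands, receptors and inhibitors had 0 calls among 19, 19 and 21 tested, with medians of −0.05, 0.00 and −0.01.

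Of the genes that microglia express in dependence on TGF-beta, 12 were tested in the PFC and 11 in each culture. In the PFC and in microglia 0 were called, with medians of 0.15 and 0.01. In the co-cultures 3 were called up, with a median of 0.20, where 0.846% of all genes tested were called up. The sum of the list there lay between 115 and 129 CPM after anti-miR-99b and between 110 and 123 CPM after sc-control. Csf1r, the receptor for the survival factor of microglia, was at 11.5 ± 0.347 CPM (SD, n = 7) against 9.15 ± 0.896 CPM (SD, n = 8) (log2FC 0.34, standard error 0.05, adjusted p = 0.00101, edgeR). Cx3cr1, the fractalkine receptor, was at 12.2 ± 0.838 against 9.29 ± 1.63 CPM (log2FC 0.39, adjusted p = 0.0107, edgeR), and Olfml3 at 2.44 ± 0.356 against 1.79 ± 0.150 CPM (log2FC 0.45, adjusted p = 0.0121, edgeR). Csf1r and Cx3cr1 are also on the list of microglia markers, of which 7 of 10 were called up there, and the part of the marker level in these calls was not tested. With the replicate block, fitted only to 4 pairs of libraries, the calls of Cx3cr1 and Olfml3 ended (adjusted p = 0.0632 and 0.371, edgeR).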

How the data were processed

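RNA was sequenced in 29 libraries of 3 experiments, grouped by the sample labels. Libraries were made with a TruSeq RNA v2 kit and sequenced as 50 bp single reads. Per the labels and the submitters' processing notes, the authors converted reads with bcl2fastq 2.20.2, checked them with FastQC 0.11.5, aligned them to mm10 with STAR 2.5.2b and counted them with featureCounts 1.5.1, and deposited raw read counts per gene. Annotation release and strand setting are not given in the sources used here. All columns of values had a sample. Identifiers were matched to GENCODE M21 (GRCm38), which gave symbols, positions and exon lengths, and the miRNA sequence came from RefSeq.

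Each experiment was fitted alone with edgeR 4.0.16 in R 4.3.3 (filterByExpr, TMM, quasi-likelihood test, no covariate, Benjamini-Hochberg adjustment over all genes tested). The standard error is the log2FC over the square root of F, and 95% intervals use residual degrees of freedom of the libraries. CPM are counts scaled by library size and TMM factor, and levels between genes are CPM per kb of exon. Two-sided exact permutation tests were used for single values. The sc-control groups were compared in 1 fit of 15 libraries, and effects between experiments in 1 fit of 29. Scripts were tested on simulated data. Microglia thresholds are not stated by the study and were set to an adjusted p of 0.1 and a log2FC of 0.1.

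The 9 genes and all lists (6 pathway lists, 7 marker lists) were chosen with earlier results of these data known. Named are the 9 genes, the called genes of each pathway list (at most 4 per list and experiment by p) and, for each of the 9, the 2 genes most like it. The alternatives were DESeq2 1.42.0, other scaling (RLE, upper quartile), other filters (none, or at least 10 counts in every library), lane, replicate number or 1 RUVs factor as covariate, another threshold, and each library left out. With replicate number as covariate (the replicate block), only libraries whose number occurs in both groups entered the fit. Added after seeing the data were the crossed pairing, lane and left-out libraries for the differences between experiments, the alternatives for genes named from the lists, and the ratio to microglia markers. A result of the marker lists is not reported here.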

Additional observations from a re-analysis of the deposited data

Results flagged for a closer look

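In control microglia, Tgfbr1 in sc-control replicate 2 was at 363 CPM, while the other libraries of the group lay between 401 and 406 CPM, a gap of 0.870 of the whole range. Without this library the log2FC of Tgfbr1 in microglia was −0.08 in place of −0.05 (edgeR adjusted p = 0.0738 in place of 0.891), still inside the limit of 0.1. In the same group, Tgfbr2 in sc-control replicate 4 was at 491 CPM, while the others lay between 460 and 464 CPM (gap 0.882 of the range). Its log2FC without this library was 0.03 (edgeR adjusted p = 0.837). Of 36 sets of values examined in this way 2 stood out, and chance flags about 1 in 20.

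The effect of anti-miR-99b on Smad3 differed between experiments. The log2FC in microglia exceeded that in the PFC by 0.30 and the log2FC in the co-cultures exceeded it by 0.30 as well, both tested as a difference in 1 fit and both resting on the same 3 treated and 3 control mice. That fit shares 1 estimate of spread per gene over all 29 libraries, which may understate the spread between the mice.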

How the results depend on the processing

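In microglia and the co-cultures 0 of the 9 genes were called under every alternative. In the PFC 0 were called except in 3 fits. One RUVs factor gave 1 lower (Smad3, −0.24). The replicate block kept only libraries whose number occurs in both groups, with 2 pairs in the PFC, 2 in microglia and 4 in the co-cultures. In the PFC it gave 1 higher (Tgfbr2, 0.36, adjusted p = 0.0433, edgeR). Numbers paired crosswise, an alternative added later, gave 1 higher (Tgfbr2, 0.36, adjusted p = 0.00585) and 1 lower (Smad3). Tgfbr1 was 0.24 with the replicate block and 0.23 when crossed. Libraries of the same number had correlations of −0.285 to 0.048 in the PFC, −0.051 to −0.038 in microglia and −0.015 to 0.047 in the co-cultures, and they were not paired in the main fits. The labels do not say whether equal numbers mark a shared preparation, and so few pairs cannot settle it. The causes of the changes in these fits were not tested.

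The genes called up and down in the PFC (15 and 0) became 76 and 8 with DESeq2, 25 up with upper-quartile factors, 297 and 115 without a filter, 73 and 4 with lanes, 192 and 92 with RUVs, 475 and 43 with the replicate block and 551 and 87 when crossed. Those in microglia (65 and 8) became 35 and 5, 138 and 29 without a filter, 118 and 42 with RUVs, 162 down with the replicate block (87 up) and 5 down at an adjusted p of 0.05. Those in the co-cultures (137 and 90) became 85 and 36 with lanes, 284 and 236 with RUVs and 70 and 23 with the replicate block. With single libraries left out, they were 1 to 195 and 0 to 6 in the PFC, 0 to 234 and 2 to 175 in microglia, and 89 to 159 and 49 to 141 in the co-cultures.

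Values near 0 changed sign with the replicate block, Tgfbr2 (−0.02) and Smad2 (−0.01) in microglia and Tgfb3 (−0.01), Tgfbr1 (−0.05), Smad2 (−0.02) and Smad7 (−0.05) in the co-cultures. So did Smad3 between control microglia and PFC with upper-quartile factors (−0.06) and Smad7 in the difference of microglia and PFC effects without a filter (0.01). With single libraries left out, ranges that crossed 0 were −0.03 to 0.09 (Tgfb2) and −0.21 to 0.10 (Tgfbr1) in the PFC. They were −0.04 to 0.09 (Tgfb2), −0.09 to 0.05 (Tgfb3), −0.01 to 0.04 (Smad2) and −0.02 to 0.04 (Smad4) in microglia, and −0.02 to 0.06 (Tgfb3) and −0.03 to 0.03 (Smad7) in the co-cultures. For Tgfb2 between control microglia and co-cultures it was −0.12 to 0.03. For differences of effects they were −0.12 to 0.20 (Tgfbr1) and −0.05 to 0.01 (Smad7) for microglia and PFC, −0.21 to 0.03 (Tgfb1), −0.07 to 0.25 (Tgfbr1) and −0.20 to 0.02 (Tgfbr2) for co-cultures and PFC, and −0.09 to 0.06 (Tgfb3) and −0.03 to 0.01 (Smad2) for microglia and co-cultures.

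Between control groups, the 1 of the 9 genes higher in the co-cultures than in the PFC became 0 with RLE or upper-quartile factors or DESeq2 and 0 to 1 with libraries left out, and the 3 higher in microglia than in the PFC became 3 to 5. For the difference of microglia and PFC effects, 0 to 2 of the 9 were called with libraries left out (Smad4 without PFC anti-miR-99b replicate 3, adjusted p = 0.0484), and the genes called higher and lower (20 and 69) became 116 and 114 without a filter, 130 and 135 with DESeq2, 13 higher with lanes, and 3 to 700 and 14 to 284 with libraries left out. For co-cultures and PFC (44 and 106) they became 79 higher with RLE, 590 and 177 without a filter, 368 and 179 with DESeq2, 24 higher with lanes, and 10 to 1243 and 34 to 508. For microglia and co-cultures (3 and 13) they became 9 and 46 without a filter, 5 and 34 with DESeq2, and 1 to 5 and 8 to 21. Smad3 kept both of its differences in all 4 other settings.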

Other observations

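Genes whose variation within groups was most like that of each of the 9 genes were found by Pearson's r of log2(CPM + 0.5) over the 29 libraries after removal of the 6 group means, among 13650 genes tested in all experiments. The values describe these libraries, which share depth and preparation. Tgfb1 was most like Grn (r = 0.84), the gene of the lysosomal protein progranulin, and Cyba (r = 0.81), a subunit of the phagocyte NADPH oxidase. Tgfbr2 was most like Itgal (r = 0.78), an integrin chain of leukocytes, and Apbb1ip (r = 0.74). Tgfb2 was most like Prom1 (r = 0.74) and Dnal1 (r = 0.73), and Tgfb3 like Dnhd1 (r = 0.67) and Gm11110 (r = 0.61). Among the Smads, the pairs were Scg2 (r = 0.72) and Fancf (r = 0.72) for Smad2, Bag5 (r = 0.78) and Cyb561d1 (r = 0.74) for Smad3, Unc80 (r = 0.67) and Klhl5 (r = 0.67) for Smad4, and Pnpla6 (r = 0.69) and Rcc1 (r = 0.67) for Smad7. Within single experiments several of these likenesses were weak or turned. Tgfb2 and Dnal1 had r = −0.15 in the 15 co-culture libraries, and in the 8 microglia libraries Tgfb1 and Cyba had r = 0.26, Tgfbr2 and Itgal 0.24, Tgfbr2 and Apbb1ip 0.19, Smad3 and Cyb561d1 0.29, and Smad7 and Rcc1 0.21. Between the 9 genes themselves, the closest were Smad3 and Smad4 (r = 0.42), Tgfbr1 and Tgfbr2 (r = 0.36) and Tgfb1 and Tgfbr2 (r = 0.35).

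The highest values were those of Tgfbr1 with Hnrnpu (r = 0.95), the gene of a nuclear RNA-binding protein, and Prpf39 (r = 0.95), a splicing factor. In the PFC, Hnrnpu was at 471, 529 and 567 CPM in the treated mice 1, 2 and 3 and at 559, 507 and 591 CPM in the sc-control mice 2, 3 and 4. Tgfbr1 had the same order of mice within each group, with 23.6, 34.9 and 37.5 CPM and 34.5, 27.4 and 39.8 CPM. The mouse with the lowest Tgfbr1 in each group also had the lowest total count of its group, 24482309 and 28450652, and the part of depth in this order was not tested.

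Neuron, astrocyte, endothelial and mural, fibroblast and meningeal, and blood and border myeloid markers had 0 calls in all 3 experiments. In microglia and co-cultures only 5 and 5 of 8 endothelial and mural markers were tested. Of the fibroblast and meningeal markers 5 and 6 of 7 were, and of the blood and border myeloid markers 4 and 1 of 8. In the PFC the median log2FC of the astrocyte, endothelial and mural, fibroblast and meningeal, and blood and border myeloid lists was 0.03, 0.06, 0.08 and 0.34. Of the blood and border myeloid markers, 2 of 8 had no count in any microglia library. The list as a whole was present there, with sums of 252 to 258 CPM after anti-miR-99b and 228 to 259 CPM after sc-control.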
